A study of Homo sapiens with 24 samples.

Results

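Across the 24 FAIRE-seq peak lists of this series, 12875 regions of the autosomes were open in every library. FAIRE-seq isolates DNA that cross-linking leaves free of nucleosomes, so that a peak of sequenced fragments marks a stretch of open chromatin. To find the regions, the 50000 peaks of highest pileup were kept in each list, where pileup is the number of overlapping fragments at the summit of a peak. Kept peaks of all lists that overlapped by at least 1 bp were merged into 113665 regions. The 12875 merged regions with a kept peak in all 24 lists, 11.3% of the total, are called members here. The members were thus chosen by pileup, and their high pileup is a property of the choice and not a result.

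LNCaP is an androgen-sensitive human prostate cancer cell line, and RES-A is an enzalutamide-resistant subline derived from it by passage in rising concentrations of the drug. Before treatment, both spent 3 days in RPMI with 5% serum stripped of steroids by dextran-coated charcoal, and the androgen receptor inhibitor enzalutamide (ENZ, 10 µM) was present for RES-A alone. The treatments lasted 18 h and were the solvent DMSO, the androgen dihydrotestosterone (DHT, 10 nM), ENZ at 10 µM, and the combination of both agents (DHT+ENZ). Each of the 8 groups had 3 libraries, described by the study as biological triplicates. RES-A is a single derived subline, so a difference between RES-A and LNCaP cannot be told apart from a difference between these cultures, and the ENZ given before treatment differed in the same way.

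Open chromatin marks promoters, enhancers and insulators. Many promoters of genes that every cell uses stay open whatever the cell is exposed to, whereas enhancers tend to open and close with the transcription factors that bind them. The androgen receptor is such a factor: bound by DHT it occupies DNA and changes accessibility nearby, and ENZ competes with DHT for the receptor. Genes at the members were not analysed here, because the lists are in the hg19 build and no annotation of that build was used, so members are given by their hg19 coordinates alone.

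The rule required a high rank in the shallowest libraries as well. The genome-wide background, recovered from the pileup and fold enrichment in each list, was 0.406 reads per base in LNCaP ENZ replicate 1 and 0.739 in LNCaP DHT replicate 1. It lay between 1.81 and 5.99 in the other 22 libraries. The lowest kept pileup was 6 and 8 in these shallow libraries, so that 1 fragment more or less moved a peak a long way in the ranking. Median pileup over the members was 11 and 14 there and between 39 and 119 in the others. Values of LNCaP with DHT or ENZ alone thus rest partly on coarse counts.

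**Figure D1:**
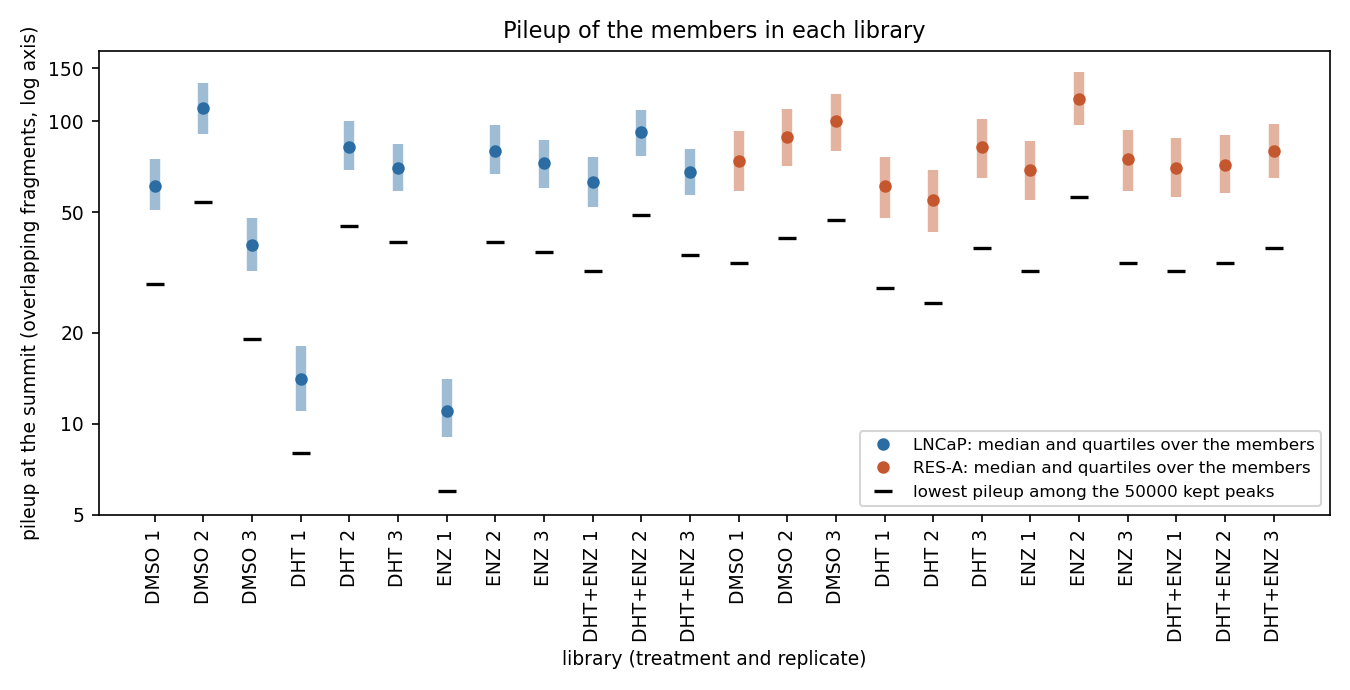
Pileup at the summit (overlapping fragments, log axis) over the 12875 members in each of the 24 libraries, with the median (points), the quartiles (bars) and the lowest pileup among the 50000 kept peaks (black marks). LNCaP DHT replicate 1 and LNCaP ENZ replicate 1 lie far below the other 22 libraries, with medians of 14 and 11.

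A further 5441 regions had a kept peak in exactly 23 lists. The list without one was that of LNCaP ENZ replicate 1 for 2353 of them (43.2%) and that of LNCaP DHT replicate 1 for 1539 (28.3%). In 2569 of the 5441 the missing library did have a deposited peak, and its pileup was a median of 0.911 times the lowest kept pileup. On the inner side of the limit, 2345 members (18.2%) had a pileup under 1.1 times the lowest kept pileup in at least 1 library. At the other end, 23645 merged regions (20.8%) had a kept peak in a single list. Without the shallow libraries, 17440 regions met the rule over the remaining 22 lists, and these overlapped every one of the 12875.

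Members were longer than the other merged regions. Their median length after merging was 611 bp (quartiles 489 and 767 bp, range 185 to 3784 bp), against 410 bp for the other merged regions. Because a merged region grows with the number of lists that contribute to it, part of this length comes with the rule: the regions of 23 lists had a median of 576 bp. Within single lists the median length over 24 libraries of the peaks in a member was a median of 423 bp. A length of at least 500 bp was reached by 72.8% of the members and by 33.7% of the other regions. Nearly all were simple in shape, with 11067 members (86.0%) made of exactly 1 kept peak in each list.

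The summits were in nearly the same place in all libraries. In a median member, the summits of the 24 libraries lay a median of 13.5 bp from their common median position. The median summits of the sublines were 8.5 bp apart in a median member, and 215 members (1.67%) had them over 100 bp apart. Neighbouring members were a median of 81431 bp apart, against 11525 bp for all merged regions. Gaps under 1000 bp made up 2.44% of the gaps between members and 11.8% of those between merged regions. Of 2731 windows of 1 Mb with a merged region, 415 (15.2%) had no member. Members are 11.3% of the merged regions, so wider gaps and windows without a member come with taking a part of them.

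Chromosome 19 stood out in the spread over chromosomes. Of its merged regions 26.8% were members, at 10.6 members per Mb, although its merged regions (39.7 per Mb) lay near the middle of the range of the autosomes. Chromosomes 17 and 16 followed, with 16.1% and 15.9%. The lowest shares were 6.24% on chromosome 13, 6.61% on chromosome 21, 6.88% on chromosome 6 and 7.49% on chromosome 2. Chromosome 13 had 1.72 members per Mb. The shares are descriptions with no test, since regions of a chromosome are not replicates.

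**Figure D2:**
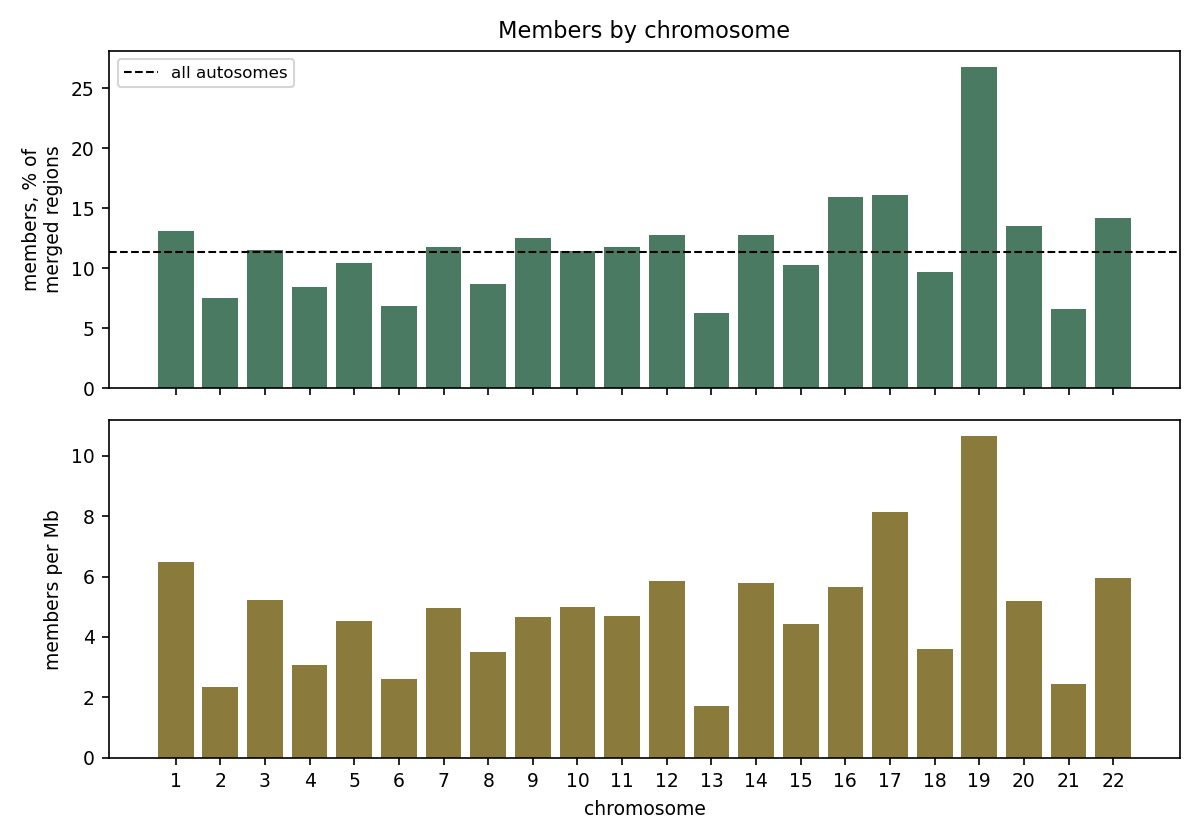
Members on each autosome, as a percentage of the merged regions (upper bars, dashed line at 11.3% for all autosomes) and per Mb between the outermost deposited peaks of the lists (lower bars). Chromosome 19 is highest on both scales, with 26.8% and 10.6 per Mb, and chromosome 13 lowest.

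The densest windows of 1 Mb showed 2 kinds of crowding. On chromosome 10, positions 42000001 to 43000000 held 33 members, of which 32 had a median local background of at least 20 reads per base and fold enrichment over that background was a median of 2.14. The next densest windows were chromosome 16 from 30000001 to 31000000 with 30 members and chromosome 19 from 1000001 to 2000000 with 28. None of the members in these windows had such a background, and their window medians of fold enrichment were 13.0 and 12.4.

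Regions with a high local background were few but took the top of the ranking. They numbered 162 (1.26% of the members) in 27 windows of 1 Mb, with a median fold enrichment of 2.81 against 9.87 over all members. The largest stretches were chr10:42356038-42600496 with 32 members, chr8:43092741-43838809 with 14, and chr2:92268777-92326164 and chr16:46385914-46435595 with 13 each. The 5 members of highest mean percentile of pileup all belonged to them: chr1:121483802-121485512, chr7:61967158-61969728, chr1:564478-566887, chr1:567127-570292 and chr19:27731820-27732897. The longest member, chr10:42596713-42600496 with 3784 bp, did so too.

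Pileup at these regions did not scale with depth. The highest pileup of every list lay between 298 and 380, whatever its background. At chr1:121483802-121485512 the median pileup was 360. The median pileup of the 162 was 68.5 in LNCaP ENZ replicate 1 and 89 in LNCaP DHT replicate 1, and 124 to 192.5 in the other libraries. Divided by the median of each library, these became 7.61 and 8.09 in the shallow libraries and 2.1 to 4.66 in the others. Treatment and subline values of these 162 members therefore moved with depth.

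For comparisons between libraries, each pileup was divided by the median pileup of its library over all 28416 regions with a deposited peak in all 24 lists, and is called relative pileup. Differences were tested on its log2 in limma over all 28416 regions, with Benjamini-Hochberg adjustment and a threshold of 0.05. Members are 12875 of the 28416. The median SD of log2 relative pileup over the 24 libraries was 0.24 in the members and 0.35 in the other 15541. The rule itself removed regions that were low in any library, so the smaller spread comes with it.

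The steadiest members barely moved. At chr15:69869095-69869649, which had the smallest SD (0.09), relative pileup was lowest at 1.19, at a median of 1.34 and highest at 1.51 over the 24 libraries. At chr11:77531704-77532298 the same values were 1.3, 1.54 and 1.73, and at chr18:21811579-21812522 they were 1.48, 1.65 and 1.88. The ranges of LNCaP and RES-A overlapped at these 3 members. In all, 4417 members (34.3%) passed the threshold in none of the comparisons tested, against 29.8% of all regions tested.

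The sublines differed at more members than DHT and DMSO, ENZ and DMSO, or DHT+ENZ and DHT did within a subline, in a comparison of 12 against 12 libraries instead of 3 against 3. RES-A minus LNCaP, averaged over the 4 treatments, passed the threshold at 7388 members (57.4%), against 62.1% of all regions tested and 66.0% of those that were not members. Relative pileup was higher in RES-A at 5690 and lower at 1698. Higher calls were 32.5% and lower calls 29.6% of all regions tested. The balance of directions depended on the reference point, since the members as a whole lay higher in RES-A. Their median relative pileup was 1.22 to 1.34 in the 12 LNCaP libraries and 1.38 to 1.44 in the 12 RES-A libraries. With each library centred on the members alone, 3267 were higher and 3337 lower. Quantile normalization gave 3668 and 2372, and fold enrichment in place of pileup gave 2544 and 1852. Scaling by the genome-wide background, which moved the median of all regions by 0.46 on the log2 scale, gave 10977 and 79. Without the shallow libraries 7977 members passed, 6058 higher and 1919 lower. The counts under these alternatives have no share of all regions tested beside them, so they do not set members apart from other regions.

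Most differences between the sublines were small. A difference of at least 1.5-fold remained at 726 members with higher and 207 with lower pileup in RES-A, or 7.25% of the members. Of all regions tested 18.8% differed by as much, 6.99% higher and 11.8% lower. The 12 RES-A libraries lay entirely above the 12 LNCaP libraries at 836 members and entirely below at 106. Those shares of all regions tested were 5.07% and 4.95%. Within single treatments, 2740 members passed with DMSO, 4095 with DHT, 3835 with ENZ and 3247 with DHT+ENZ (21.3%, 31.8%, 29.8% and 25.2% of the members, against 29.5%, 36.8%, 34.2% and 31.7% of all regions tested). On fold enrichment these counts were 579, 1345, 1073 and 578. Scaled by the genome-wide background, 1374 passed with DMSO and 10622 with DHT.

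The 3 members that rose most in RES-A all lay on chromosome 6. At chr6:74230718-74231360, relative pileup in LNCaP was lowest at 0.667, at a median of 0.958 and highest at 1.17, and in RES-A it was 2.06, 2.19 and 2.44. The groups did not overlap, and the fold difference was 2.35 (log2 1.24 ± 0.07, SE, n = 12 against 12, limma with Benjamini-Hochberg adjusted p = 1.95e-19). Its fold enrichment over the local background did not pass (log2 difference 0.00, limma adjusted p = 0.975), so the local background there was higher in RES-A by about as much. At chr6:43597628-43598086 relative pileup was 0.723, 1.02 and 1.28 in LNCaP and 2.12, 2.35 and 2.63 in RES-A (fold difference 2.34). At chr6:12332063-12332556 it was 0.667, 0.857 and 1.08 against 1.75, 2.05 and 2.22 (fold difference 2.32). For these 2 members the difference in fold enrichment was 0.16 and 0.29 on the log2 scale.

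The members that fell most in RES-A lay on 3 chromosomes. At chr8:70602226-70602653, relative pileup in LNCaP was lowest at 1.32, at a median of 2.20 and highest at 3.07, and in RES-A it was 0.674, 0.892 and 1.08. The difference was 2.48-fold (log2 -1.31 ± 0.13, SE, n = 12 against 12, limma with Benjamini-Hochberg adjusted p = 2.17e-08), and fold enrichment differed as well, by -0.93. At chr1:91852653-91853224 relative pileup was 2.57, 4.16 and 6.59 in LNCaP and 1.33, 1.71 and 2.12 in RES-A. At chr21:9825441-9826576 it was 1.85, 3.53 and 5.24 against 1.1, 1.36 and 1.72. LNCaP libraries differed widely among themselves at the last 2, and LNCaP DMSO replicate 3 was the highest at both.

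Differences between the sublines were shared over long stretches of chromosomes. In 10-Mb windows with at least 20 members, the median relative pileup of the members passed the threshold in 191 of 243 windows (78.6%), 166 higher and 25 lower in RES-A (two-sided permutation within treatments, Benjamini-Hochberg over windows). The windows ranged from -0.63 to 0.59 on the log2 scale, around a shift of 0.14 of the members as a whole. Each window was tested against 0, so this shift enters the counts of higher and lower windows. Relative to the shift, 107 windows lay above and 136 below, given without a test. The libraries did not overlap in 58 of the higher and 3 of the lower windows. Quantile normalization left 150 windows, 87 higher and 63 lower, and without the shallow libraries there were 197.

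Some chromosomes lay on one side in all of their windows. On chromosome 6 the median member was higher in RES-A by 0.44 on the log2 scale, and 360 of its 446 members (80.7%) passed as higher, against 65.4% of all regions tested on that chromosome. All 11 windows of chromosome 6 lay between 0.27 and 0.50, but none between positions 40000000 and 100000001 held enough members to be tested. Chromosome 1, with 1617 members, followed at 0.40, and all 24 of its windows were above 0, though 3 of them lay between 0.13 and 0.17, near the shift of the members as a whole. On chromosome 15 the median was -0.15, with 8 of 365 members higher and 154 (42.2%) lower, against 4.25% and 61.8% of all regions tested there, and all 7 of its windows were below 0.

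Other chromosomes were split. Chromosome 21 was at 0.38 over 94 members, with a window at 0.08 that did not pass (adjusted permutation p = 0.137) beside others at 0.47 and 0.50. On chromosome 4, with a median of -0.05, 125 members were higher and 192 lower, and its windows ran from -0.35 to 0.15. The windows highest in RES-A were chromosome 13 from 20000001 to 30000000 (21 members, difference 0.59), chromosome 1 from 220000001 to 230000000 (105 members, 0.53) and chromosome 6 from 1 to 10000000 (28 members, 0.50). On chromosome 13 the first of these had a relative pileup of 1.02 ± 0.0789 in LNCaP and 1.53 ± 0.046 in RES-A (mean ± SD, n = 12 and 12), and the other windows of that chromosome reached down to 0.00. The lowest were chromosome 8 from 20000001 to 30000000 (29 members, -0.63) and from 40000001 to 50000000 (38 members, -0.59), and chromosome 4 from 90000001 to 100000000 (25 members, -0.35). The adjusted permutation p was 5.01e-05 in each of these 6 windows. In the first window of chromosome 8 the LNCaP libraries lay between 1.22 and 1.66 and the RES-A libraries between 0.923 and 1.06. Of the 38 members of the second, 14 lay in the high-background stretch chr8:43092741-43838809 and 6 in chr8:46838984-46856357. Its median thus rests largely on regions whose values moved with depth, and its LNCaP libraries spread from 1.73 to 4.27.

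The local background at the members moved along with the pileup. Over the 243 windows, the differences of the sublines in pileup and in local background had a Pearson r of 0.932, a description over windows that share the same 24 libraries. Of the 191 windows past the threshold, 154 differed from the median window in the same direction in both. In the windows named above the background difference was 0.38 on chromosome 13, -0.83 in the first window of chromosome 8 and -0.56 on chromosome 4. Local background was recovered from the pileup and fold enrichment of the same peaks, and whether a control library entered it was not given. The number of copies of these chromosome stretches in either subline was not analysed here. When the window median over all regions tested was subtracted from each library, 6535 members passed, 5029 higher and 1506 lower, with no share of all regions beside these counts. Of these, 4668 had also passed without the subtraction. That median was not taken over the members alone, so their offset from the other regions stayed in these counts. Before the subtraction the median difference was 0.13 on the log2 scale in the members and -0.16 in the other regions.

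**Figure D3:**
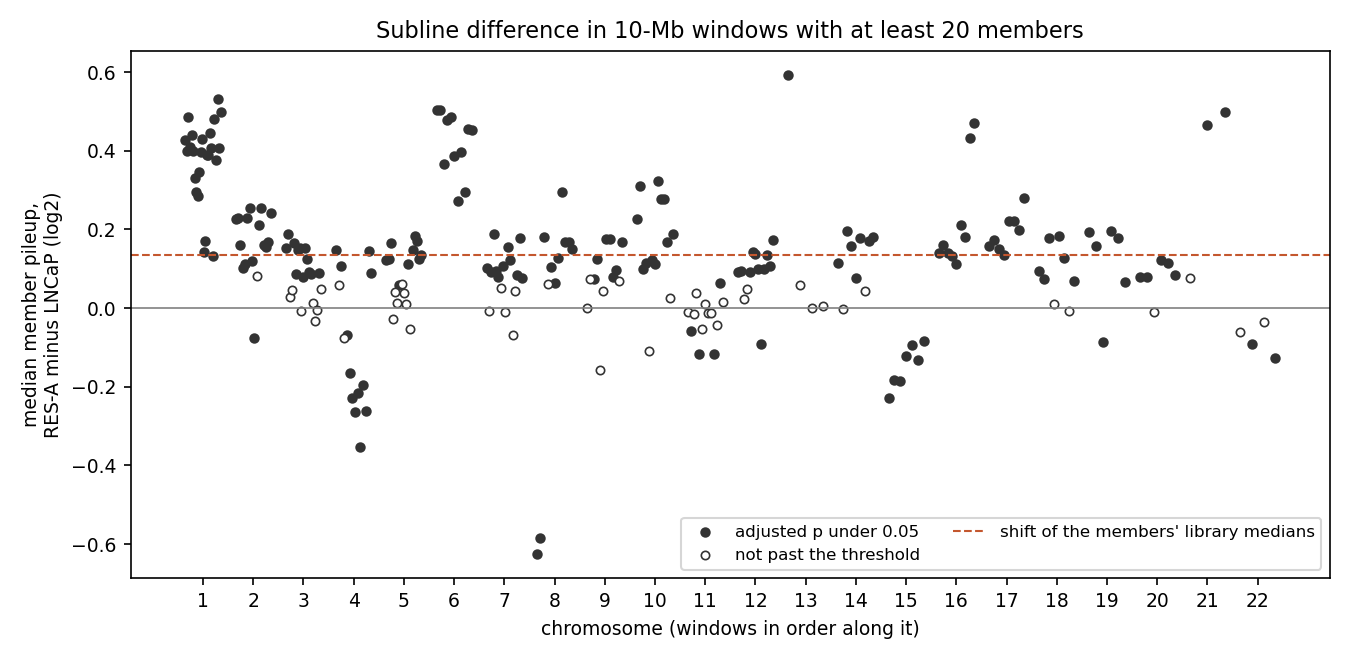
Difference RES-A minus LNCaP in the median relative pileup of the members (log2) for the 243 windows of 10 Mb with at least 20 members, in order along each chromosome, with windows past the threshold filled. All windows of chromosomes 1 and 6 lie above 0, with 3 windows of chromosome 1 near the dashed line, chromosome 15 lies below 0, and 2 windows of chromosome 8 are lowest, at -0.63 and -0.59. The window at -0.59 holds many members with a high local background, whose values moved with depth.

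DHT changed the pileup of members in both sublines. In RES-A, DHT minus DMSO passed the threshold at 1317 members (10.2%), against 16.1% of all regions tested and 20.9% of the regions that were not members. Pileup rose at 830 and fell at 487, against 9.9% and 6.15% of all regions. In LNCaP it passed at 699 members (5.43%), against 6.13% of all regions tested, with 230 higher and 469 lower. Those directions were 3.59% and 2.54% of all regions. At an unadjusted p under 0.05 there were 2363 of the 12875 members in RES-A and 2943 in LNCaP. These counts have no share over all regions beside them, and such a p is reached by about 0.05 of regions that do not differ. Changes of at least 1.5-fold numbered 471 up and 163 down in RES-A, where 8.02% of all regions tested rose and 4.12% fell by as much (12.1% in all). In LNCaP they numbered 110 up and 68 down, against 2.94% and 0.859% of all regions tested (3.8% in all).

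The LNCaP count leaned on single libraries and on the reference point. Without LNCaP DHT replicate 1, the shallow library, 211 members passed (71 higher and 140 lower). Without LNCaP DMSO replicate 3 there were 238 (135 and 103), and without LNCaP DMSO replicate 1 there were 307 (117 and 190). Without LNCaP ENZ replicate 1, which took no part in the comparison but in the shared estimate of the spread, there were 1371 (399 and 972). Centred on the members alone, LNCaP had 447 higher and 204 lower, so the excess of lower calls turned. Without both shallow libraries there were 829 in LNCaP (205 and 624) and 1944 in RES-A (1100 and 844). In RES-A centring on the members gave 854 and 505. Scaling by the genome-wide background gave 1 higher and 4316 lower in LNCaP and 368 and 24 in RES-A.

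**Figure D4:**
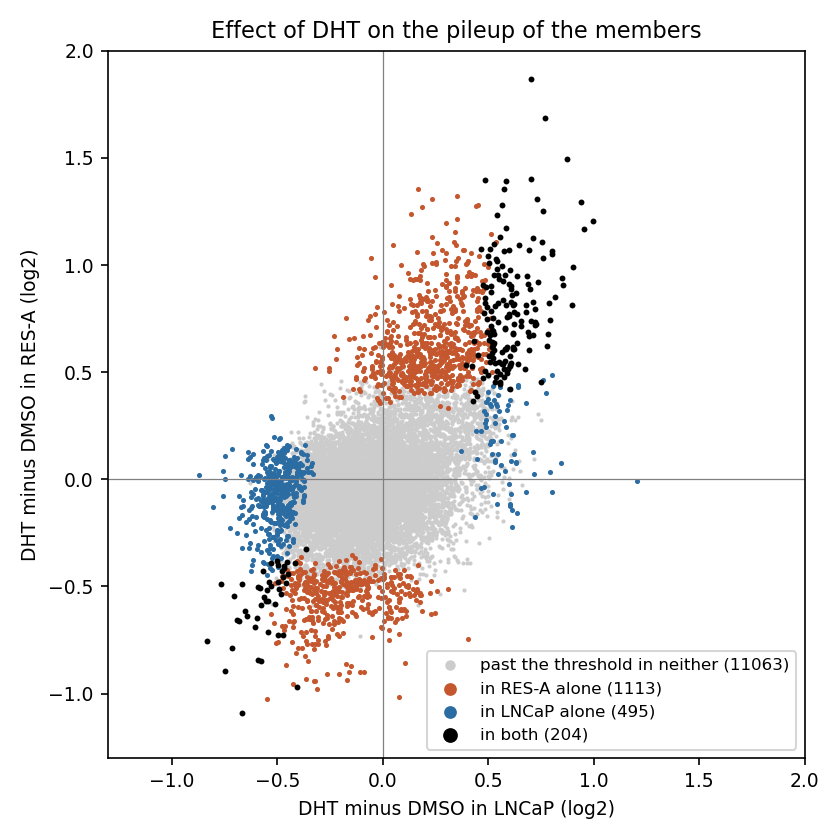
Fitted DHT minus DMSO difference of each of the 12875 members in LNCaP (horizontal axis, log2) and in RES-A (vertical axis, log2), coloured by the subline in which it passed the threshold. The 204 members past it in both lie in the upper right and lower left, 1113 passed in RES-A alone and 495 in LNCaP alone, and a call in 1 subline alone does not show that the sublines differ.

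Where both sublines passed, they moved the same way. At 159 members pileup rose with DHT in both, which is 69.1% of those that rose in LNCaP and 19.2% of those that rose in RES-A. It fell in both at 45, or 9.59% and 9.24%. Over all regions tested, these shares were 71.9% and 26.1% for rises and 19.6% and 8.06% for falls. No member, and no region tested, passed as higher in one and lower in the other. Over all members the fitted DHT differences of the sublines, which come from different libraries, had a Pearson r of 0.481, given as a description over regions that share libraries. Among the 830 members that rose in RES-A, 760 (91.6%) had an LNCaP difference above 0, and among the 487 that fell, 84 (17.2%) did. Over all members that share was 38.2%.

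Members that responded in RES-A were longer than the rest, with a median length of 702 bp for those that rose and 684 bp for those that fell. Their median fold enrichment was 8.83 and 8.95, against 9.87 over all members. The 469 that fell in LNCaP differed from this, with a median length of 567 bp and a median fold enrichment of 11.6. By chromosome, the share of members past the threshold in RES-A was highest on chromosome 18 (15.0% of 280) and lowest on chromosome 19 (1.91% of 628), the chromosome richest in members. Of all regions tested, 19.3% passed on chromosome 18 and 3.76% on chromosome 19, so chromosome 19 was low among all regions as well. In LNCaP chromosome 19 was at 5.73%, against 5.15% of all regions tested there.

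Levels with both agents lay between those with DMSO and those with DHT. The 830 members that rose in RES-A had a median relative pileup of 1.02 with DMSO, 1.65 with DHT, 1.13 with ENZ and 1.36 with DHT+ENZ in RES-A. In LNCaP the same members were at 1.23, 1.53, 1.12 and 1.33. The 487 that fell went from 1.43 with DMSO to 0.950 with DHT in RES-A, and were at 1.43 with ENZ and 1.3 with DHT+ENZ. In LNCaP these were at 1.32, 1.1, 1.31 and 1.29. The RES-A values with DMSO and DHT chose these sets and are descriptions.

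The member with the largest rise was chr1:86000062-86000942 (881 bp). In RES-A its relative pileup was 0.712, 0.905 and 0.718 with DMSO, and 3.0, 3.08 and 2.43 with DHT. The DHT libraries were far above the DMSO libraries, by 3.65-fold (log2 1.87 ± 0.15, SE, n = 3 against 3, limma with Benjamini-Hochberg adjusted p = 4.85e-13). With ENZ alone it was 0.667, 0.824 and 1.02, which overlapped DMSO, and with DHT+ENZ 1.86, 1.92 and 1.71, between both. In LNCaP it was 1.46, 1.67 and 1.41 with DMSO and 2.55, 2.26 and 2.57 with DHT, a smaller rise of 1.63-fold (adjusted p = 0.00319, limma).

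Next came chr1:120574457-120575350 and chr1:145246116-145246977. The first went from 1.04, 1.08 and 1.04 with DMSO to 3.19, 3.74 and 3.28 with DHT in RES-A, or 3.22-fold, and stood at 1.88, 1.98 and 1.91 with DHT+ENZ. The second went from 1.19, 1.44 and 1.3 to 3.79, 3.97 and 3.31, or 2.82-fold, and stood at 2.08, 2.31 and 2.14 with DHT+ENZ. At both, DHT+ENZ was below DHT in each subline past the threshold, although the same DHT libraries of RES-A had chosen these members. Both rose in LNCaP as well, by 1.70-fold and 1.83-fold. All 3 of these members lay on chromosome 1, in stretches with a local background of 12 to 19.7 reads per base, above the median of 6.44.

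In LNCaP the largest rise was at chr14:19566326-19567054 (729 bp). Its relative pileup was 0.935, 0.940 and 1.1 with DMSO and 2.45, 2.18 and 2.21 with DHT, a 2.30-fold difference (log2 1.20 ± 0.15, SE, n = 3 against 3, limma with Benjamini-Hochberg adjusted p = 6.22e-06). With DHT+ENZ it was 1.6, 1.42 and 1.68. In RES-A it was 1.06, 1.17 and 1.07 with DMSO and 1.07, 1.21 and 1.02 with DHT, and the groups overlapped. The rise was thus seen in LNCaP, and the difference between the sublines passed the threshold too (log2 -1.21, adjusted p = 0.000916, limma). That test reuses the LNCaP libraries that chose this member, so it is not independent of the choice. The difference passed on fold enrichment (log2 -1.08, adjusted p = 0.0458, limma). Scaled by the genome-wide background it did not (log2 -0.66, adjusted p = 0.197, limma).

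The other named rises in LNCaP occurred in both sublines. At chr1:83551679-83552454, relative pileup was 1.04, 0.750 and 0.897 with DMSO and 2.09, 1.80 and 1.48 with DHT in LNCaP. In RES-A it was 1.0, 0.937 and 1.06 and then 2.30, 2.28 and 2.31. The rises were 2.0-fold and 2.31-fold, with no overlap in either subline. At chr7:107426016-107426821 LNCaP went from 1.0, 1.05 and 0.793 to 1.82, 2.08 and 1.61, and RES-A from 0.865, 0.825 and 1.03 to 1.84, 2.1 and 2.16. In LNCaP that rise did not pass on fold enrichment (adjusted p = 0.121, limma), with the genome-wide background as scale (0.11) or as the mean over all peaks (0.0506).

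Members among those that fell most with DHT in RES-A were higher with DHT+ENZ than with DHT. They were chosen for low values in the same 3 DHT libraries, which favours a higher value in any other group, so the p-values against DHT are not independent of the choice. At chr3:149360615-149361431, relative pileup in RES-A was 1.73, 1.49 and 1.61 with DMSO and 0.767, 0.692 and 0.810 with DHT, a 2.13-fold fall (log2 -1.09 ± 0.15, SE, n = 3 against 3, limma with Benjamini-Hochberg adjusted p = 4.55e-07). With DHT+ENZ it was 1.35, 1.24 and 1.24, above DHT in every library (adjusted p = 0.00334, limma). LNCaP also fell, from 1.74, 1.73 and 1.52 to 1.18, 1.0 and 0.964. At chr14:69924167-69924613 RES-A went from 1.69, 1.63 and 1.62 to 0.698, 0.821 and 0.931, and was at 1.22, 1.61 and 1.41 with DHT+ENZ (adjusted p = 0.00839 against DHT, limma). At chr8:107057962-107059126 it went from 1.77, 1.68 and 1.65 to 0.744, 0.872 and 0.914, and was at 1.29, 1.57 and 1.1 with DHT+ENZ (adjusted p = 0.0306 against DHT, limma). LNCaP there was at 1.11, 0.833 and 1.1 with DMSO and 1.09, 1.20 and 0.911 with DHT, with overlap.

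Of the members that fell most in LNCaP, only chr12:54372689-54373229 fell past the threshold in RES-A too. Its relative pileup went from 1.61, 1.64 and 1.59 to 0.818, 0.954 and 0.946 in LNCaP and from 1.54, 1.49 and 1.46 to 0.837, 0.821 and 1.02 in RES-A. The falls were 1.78-fold and 1.69-fold. It was higher with DHT+ENZ than with DHT in both sublines (adjusted p = 0.02 and 0.0365, limma). The same LNCaP DHT libraries had chosen this member for low values, so its LNCaP p-value is not independent of the choice. At chr9:34458425-34458968 LNCaP went from 2.15, 2.08 and 2.66 to 0.909, 1.40 and 1.54, and RES-A was at 2.21, 2.21 and 2.11 with DMSO and 2.19, 2.1 and 2.34 with DHT. At chr11:64005017-64005406 LNCaP went from 2.04, 1.68 and 2.14 to 0.909, 1.51 and 1.0. The lowest value of all 3 members came from the shallow LNCaP DHT replicate 1, and on fold enrichment none of the 3 LNCaP falls passed (adjusted p from 0.0548 to 0.36, limma).

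**Figure D5:**
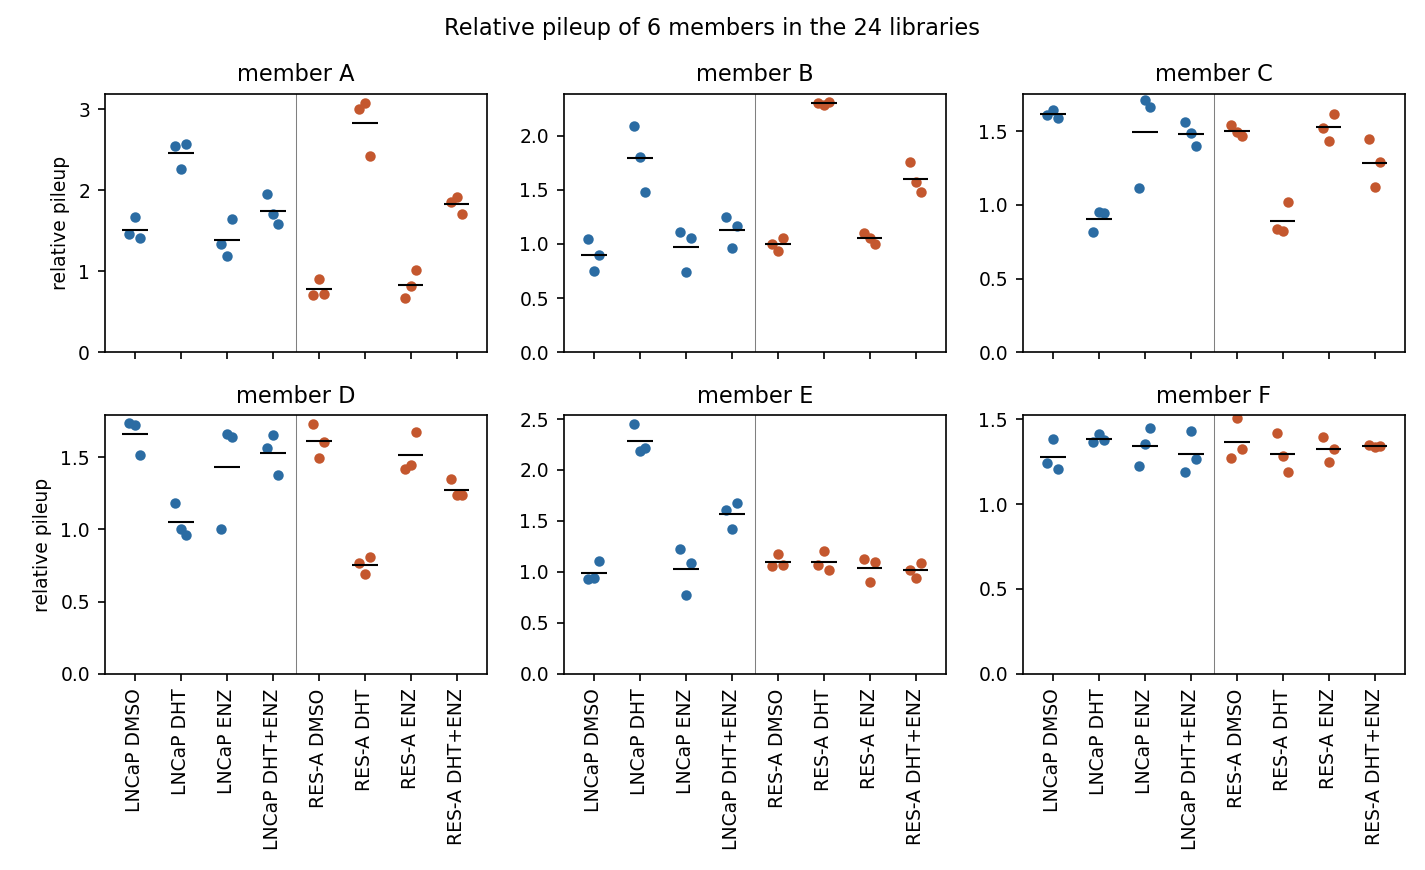
Relative pileup (no unit, 1 is the median of the library over the regions tested) in the 24 libraries (points, 3 per group) with group means (black lines) at 6 members: A chr1:86000062-86000942, B chr1:83551679-83552454, C chr12:54372689-54373229, D chr3:149360615-149361431, E chr14:19566326-19567054 and F chr15:69869095-69869649. With DHT, A and B rise and C and D fall in both sublines, E rises in LNCaP and stays near 1 in RES-A, and F varies between 1.19 and 1.51.

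The effect of DHT differed between the sublines at few members. The test of that difference passed at 61 members (0.474%), against 1.34% of all regions tested. DHT moved pileup further up, or less far down, in RES-A at 51 and the reverse at 10, against 1.12% and 0.225% of all regions. With fold enrichment in place of pileup 1 member passed, and with quantile normalization 4. Without the shallow libraries 159 passed. The 51 started low in RES-A, with a median relative pileup of 0.983 with DMSO against 1.58 in LNCaP, and reached 1.93 with DHT against 1.62. The DMSO and DHT values of both sublines chose these members, so this pattern comes with the choice and is a description. The largest was chr3:155852018-155852810. There RES-A went from 0.769, 0.698 and 0.831 with DMSO to 1.86, 2.0 and 2.0 with DHT, and LNCaP from 2.09, 2.26 and 1.83 to 2.45, 2.26 and 2.20 (difference of the effects 1.19 ± 0.18 on the log2 scale, SE, n = 3 per group, limma with Benjamini-Hochberg adjusted p = 7.54e-05). On fold enrichment that difference did not pass (0.51 on the log2 scale, adjusted p = 0.256, limma). The RES-A libraries with DHT came up to the level that LNCaP had with DMSO.

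ENZ without DHT changed almost no member at this number of libraries. RES-A had ENZ before treatment and LNCaP did not. The comparison is thus ENZ kept against ENZ left out for 18 h in RES-A, and ENZ added in LNCaP. In LNCaP 1 member passed (0.00777%), against 0.00352% of all regions tested. In RES-A 0 members and 0% of all regions passed in limma. At an unadjusted p under 0.05 there were 1511 of the 12875 members in LNCaP and 328 in RES-A. Such a p is reached by about 0.05 of regions that do not differ, and no share over all regions was computed. Without the shallow libraries 5 members in LNCaP and 4 in RES-A passed after adjustment. The member was chr5:126571929-126572427, where LNCaP was at 1.57, 1.14 and 1.52 with DMSO and 0.667, 0.742 and 0.857 with ENZ (1.86-fold lower, limma adjusted p = 0.00908). Without LNCaP DMSO replicate 1 or 3 it did not pass (adjusted p = 0.234 and 0.216, limma). In RES-A it was at 0.885, 0.810 and 0.803 with DMSO, as low as LNCaP with ENZ, and at 2.05, 2.03 and 1.67 with DHT.

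The effect of ENZ differed between the sublines at 1 member (0.00777%), against 0.00704% of all regions tested. The test sets ENZ kept against left out in RES-A beside ENZ added in LNCaP, which are not the same change. At chr7:111443068-111443852 LNCaP went from 1.20, 1.25 and 1.21 with DMSO to 0.778, 0.790 and 0.893 with ENZ, and RES-A from 1.08, 0.968 and 0.944 to 1.6, 1.53 and 1.23. The groups moved in opposite directions with no overlap in either subline (difference of the effects 1.11 ± 0.20 on the log2 scale, SE, n = 3 per group, limma with Benjamini-Hochberg adjusted p = 0.0366). The call was lost when any of several single libraries was left out, with an adjusted p of up to 0.184 (without RES-A ENZ replicate 1, limma), and with quantile normalization (0.0753).

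With DHT present, ENZ changed members in both sublines, where it was kept in RES-A and added in LNCaP. DHT+ENZ minus DHT passed at 162 members in RES-A (1.26%), against 3.17% of all regions tested, with 112 higher and 50 lower (1.59% and 1.58% of all regions). In LNCaP it passed at 22 (0.171%), against 0.313%, with 10 higher and 12 lower (0.0774% and 0.236%). The count depended on single libraries: without RES-A DHT replicate 1 there were 40 in RES-A, and without LNCaP ENZ replicate 1 there were 356. In LNCaP there were 0 without LNCaP DHT replicate 1, and 111 without LNCaP ENZ replicate 1. Without both shallow libraries there were 518 in RES-A and 41 in LNCaP. On fold enrichment 6 passed in RES-A and 2 in LNCaP. The test of a difference between the sublines passed at 0 members and 0% of all regions in limma. At an unadjusted p under 0.05 there were 530 of the 12875 members, and about 0.05 of regions that do not differ reach such a p. No share over all regions was computed.

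Levels with DHT stood apart from those of the other 3 treatments at these members. The 112 that rose in RES-A were at a median relative pileup of 1.45 with DMSO, 0.9 with DHT, 1.51 with ENZ and 1.40 with DHT+ENZ. The 50 that fell were at 0.988, 1.76, 1.05 and 1.18. Both comparisons use the same DHT libraries, so an unusual DHT library would move both. At chr11:24788733-24789467, which rose most, RES-A was at 0.651, 0.744 and 0.931 with DHT and 1.49, 1.27 and 1.43 with DHT+ENZ (1.82-fold, limma adjusted p = 0.000578). At chr7:131048331-131049004, which fell most, it was at 1.63, 1.72 and 1.81 and then 0.878, 0.784 and 1.09 (1.89-fold, limma adjusted p = 0.000578). Neither passed on fold enrichment (adjusted p = 0.19 and 0.0512, limma).

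In LNCaP as well, levels with DHT+ENZ were near those with DMSO at the members of largest difference. At chr1:8542870-8544162, LNCaP was at 2.24, 1.75 and 1.52 with DMSO, 0.909, 1.20 and 1.11 with DHT and 1.65, 1.68 and 2.02 with DHT+ENZ. DHT+ENZ was above DHT in every library (1.67-fold, limma adjusted p = 0.0103). At chr3:172409723-172410133 LNCaP was at 1.91, 1.57 and 1.57 with DHT and 1.19, 0.861 and 0.925 with DHT+ENZ (1.71-fold lower, limma adjusted p = 0.0103). Without LNCaP DHT replicate 1 both missed the threshold (adjusted p = 0.0745 for each, limma).

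Library summaries over the members did not separate the groups after adjustment. The median length of the peaks in members was 398 ± 77.4 bp in LNCaP and 429 ± 16 bp in RES-A (mean ± SD, n = 12 and 12, permutation p = 0.249). Without the shallow libraries the difference of 30.7 bp became -0.792 bp. The members' share of the summed kept pileup was 35.9 ± 1.35% in LNCaP and 36.9 ± 0.387% in RES-A (two-sided permutation p = 0.0155, adjusted p = 0.108 over 7 comparisons). Without the shallow libraries that difference was 1.255 percentage points (permutation p = 0.0073, not adjusted). Summit spread, the median distance of a library's summits from the members' median summits, was 16 ± 5.88 bp in LNCaP and 12.5 ± 1.11 bp in RES-A (two-sided permutation p = 0.0146, adjusted p = 0.102). It was widest in the shallow libraries, at 30.5 and 25.5 bp, and without them the difference was -1.08 bp (permutation p = 0.0485, not adjusted). For 3 against 3 libraries the smallest exact p is 0.1, so these comparisons could not pass, although they count among the 7 of the adjustment. The share of pileup fell with DHT in LNCaP by 2.82 percentage points at exactly that p (exact permutation, two-sided).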

How the data were processed

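FAIRE DNA was sequenced to 50-bp single-end reads. Per the labels and the study's methods, the authors aligned reads to hg19 with bwa 0.7.8-r455, used Picard 1.118 to mark duplicates, and ran MACS2 2.1.0 on every library by itself. The caller's options and any control library were not given in the sources used here. The deposited lists give for each peak the pileup, a signal not scaled between libraries, a fold enrichment (a ratio of pileup to the expected pileup), and −log10 p-values and −log10 q-values, as the authors' caller wrote them. Read totals were not used here. Relative depth was taken as the genome-wide background, the smallest (pileup + 1) / fold − 1 in a list. That the caller added 1 is an assumption. Local background is the same value at a peak.

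The region value was log2 of the highest deposited pileup in the region, centred on the library median. The 8 group means of all 24 libraries were fitted in limma 3.58.1 (R 4.3.3, trended and robust eBayes), whose shared spread is common to all comparisons. Groups and replicate numbers came from titles and characteristics. Windows and library values were tested by 100000 permutations within treatments, or exactly for 3 against 3 libraries, in Python 3.11.15. Scripts were tested on simulated data. Members and rules were chosen with earlier results of these data known. Members named are, among those past the threshold without overlap of the groups, the 3 per direction of largest difference for the sublines and for DHT and 1 for other comparisons (for differences of effects, by threshold alone), the 5 of highest pileup rank, the 3 of smallest SD, the longest, and the 3 densest 1-Mb and 3 most different 10-Mb windows per direction. Alternatives were other numbers of kept peaks, rankings, scalings, filters, weights, covariates and a replicate block, and leaving out libraries. Same-numbered libraries deviated together with a mean r of 0.134 within LNCaP (-0.233 to 0.403), 0.0315 within RES-A and 0.0182 between the sublines, so the numbers were not taken as pairs. No libraries were duplicates, with r between replicates of 0.495 to 0.898 over the members.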

Additional observations from a re-analysis of the deposited data

Results flagged for a closer look

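The tests of whether a treatment acted differently in the sublines passed at 61 members for DHT and at 1 for ENZ (limma, Benjamini-Hochberg adjusted p under 0.05), and this difference between the sublines is what singled out the values here. The difference of the DHT effects, RES-A minus LNCaP on the log2 scale, was 1.19 at chr3:155852018-155852810 and 1.16 at chr1:86000062-86000942, both rising further in RES-A. It was 0.92 at chr1:120574457-120575350, 0.90 at chr5:126571929-126572427 and 0.89 at chr9:34458425-34458968. It was -1.21 at chr14:19566326-19567054, where the rise was in LNCaP, and -1.09 at chr8:107057962-107059126, where the fall was in RES-A. The difference at chr3:155852018-155852810 did not pass on fold enrichment (adjusted p = 0.256, limma). That at chr14:19566326-19567054 did not pass when scaled by the genome-wide background (adjusted p = 0.197, limma). The difference of the ENZ effects (ENZ kept in RES-A, added in LNCaP) was 1.11 at chr7:111443068-111443852. At chr5:126571929-126572427, LNCaP was at 1.64, 1.78 and 1.73 with DHT, close to RES-A with DHT, and its higher start with DMSO set the sublines apart. The shallow LNCaP DHT replicate 1 had the lowest relative pileup of the LNCaP DHT libraries at chr9:34458425-34458968 (0.909), and without it DHT minus DMSO in LNCaP there was -0.64 in place of -0.87.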

How the results depend on the processing

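The number of members, 12875, fell to 5755 with 25000 kept peaks and rose to 28737 with all deposited peaks. Leaving out single libraries gave 12906 to 15229, highest without LNCaP ENZ replicate 1. Ranking on −log10 p gave 12482 regions and on fold enrichment 11745, which overlapped 11132 and 9475 of the members.

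With 25000 kept peaks, the difference of the sublines in the share of pileup was 0.309 points and did not pass. The difference in peak length reversed to -0.792 bp without the shallow libraries, and ranged from 13.4 to 40.1 bp over single omissions. Summit spread differed by -4.29 to -2.04 bp over single omissions, and 4 of these did not pass before adjustment.

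Fold enrichment in place of pileup gave 4396 members for RES-A minus LNCaP, and 579 (293 higher, 286 lower), 1345 (755, 590), 1073 (642, 431) and 578 (359, 219) with DMSO, DHT, ENZ and DHT+ENZ. Scaling by the genome-wide background gave 1374 (1305, 69) with DMSO, 10622 (10618, 4) with DHT and 8222 (8214, 8) for the combination, and quantile normalization 2419 (1620, 799) with ENZ.

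For DHT minus DMSO in LNCaP the count was 4317 scaled by background, 100 on fold enrichment, 435 on the mean over all peaks and 1372 with background as covariate. In RES-A it was 817 with quantile normalization, 392 scaled by background, 378 on fold enrichment and 2036 with library weights. Omissions of single libraries gave 211 to 1371 in LNCaP and 932 to 1689 in RES-A.

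For ENZ minus DMSO, LNCaP had 0 scaled by background or on fold enrichment, 8 with weights, 5 without the shallow libraries and 5 with the covariate, and 0 to 45 over single omissions, most without LNCaP ENZ replicate 2. RES-A had 6 with weights and 4 without the shallow libraries, and 0 to 2 over omissions.

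For DHT+ENZ minus DHT in LNCaP the count was 136 with quantile normalization, 0 scaled by background, 2 on fold enrichment, 179 with weights, 7 with members alone tested, 14 with the window median subtracted, 41 without the shallow libraries, 41 with the covariate, and 34 centred on members, and 0 to 111 over omissions. In RES-A it was 21, 2, 6 and 511 under the first 4 of these, 98 on the mean over all peaks, 75 with members alone, 518 without the shallow libraries and 282 with the covariate, and 40 to 356 over omissions.

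For the difference of the DHT effects it was 4 with quantile normalization, 318 scaled by background, 1 on fold enrichment, 40 on the mean over all peaks, 264 with weights, 18 with members alone, 159 without the shallow libraries and 175 with the covariate, and 27 (without RES-A DMSO replicate 2) to 178 (without LNCaP ENZ replicate 1) over omissions. For ENZ it was 9 with weights, 2 without the shallow libraries, 0 to 2 over omissions, and 0 with quantile normalization, scaled by background, on fold enrichment, on the mean over all peaks, with the window median subtracted and centred on members.

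The replicate block moved no count by over 1.5 times and changed no call of a named member, with 7461 members for the sublines, 818 for DHT in LNCaP, 1404 in RES-A, 204 for DHT+ENZ minus DHT in RES-A, 71 for the difference of the DHT effects, and 187 windows. For the named members' 26 comparisons under 962 alternatives, 916 kept direction and call, 46 lost the call and 0 reversed. Centring on the members and leaving out members with a high local background were chosen after seeing the data. Without the latter, 7332 members passed for the sublines, 697 for DHT in LNCaP and 1316 in RES-A. Counts of members under alternative settings, here and above, have no share of all regions tested beside them. The causes of these changes were not tested. The shallow libraries limit what LNCaP with DHT or ENZ can show.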
